A study of Homo sapiens with 6 samples.

Results

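Gene expression in A549 cells that received TIMM13 siRNA 1 was compared with that in A549 cells that received a control siRNA. A549 is an established line of human lung adenocarcinoma cells, described in the labels as epithelial-like. The study sequenced poly(A)-selected RNA, with strand kept, from 6 libraries, and 4 of these entered the comparison: the 2 whose titles name TIMM13 siRNA 1 and whose genotype field reads as a TIMM13 knockdown, and the 2 whose titles name a non-targeting siRNA and whose genotype field reads WT. The other 2 libraries carry a second TIMM13 siRNA and were used for a shared estimate of spread and for a contrast of siRNA 1 with siRNA 2, in which 376 of 11486 tested genes (3.27%) were called. The series was set up to ask what TIMM13 does in proliferation of this line. Groups were taken from the titles and the siRNA field, because the treatment field gives cell differentiation for every sample and no time after transfection, siRNA dose or culture is named. Both groups are the same parental line, and siRNA 1 is a single reagent, so an effect of losing TIMM13 and an effect of the siRNA on other transcripts cannot be told apart within this comparison. The labels do not say that replicates 1 and 2 were separate cultures, and each p-value therefore measures only the spread between these samples.

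TIMM13 encodes a soluble chaperone between the outer and inner mitochondrial membranes. Together with its partner TIMM8A it escorts hydrophobic membrane proteins, TIMM23 among them, from the TOM pore of the outer membrane toward the inner membrane, where the TIM22 complex inserts carriers and the TIM23 complex takes in proteins with a presequence. Cells that sense faulty mitochondrial import or respiration are known to engage ATF4, the transcription factor of the integrated stress response, and to change growth through the cell cycle inhibitor p21 (CDKN1A). Proliferating cells switch on E2F targets before DNA replication and then the genes of G2 and mitosis, many of which carry a short element, the cell cycle homology region, near their start.

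The deposited values are fractional abundances, treated here as depth-scaled, and not read counts, so the depth of the libraries is unknown and no counting interval is given. The column totals were 216524 and 219820 in the siRNA 1 libraries and 209245 and 209559 in the control libraries. Genes with a value of at least 1 numbered 10871 and 10851 in siRNA 1 and 10822 and 10715 in control. Replicates lay close together: the median gap between them was 0.143 log2 units in siRNA 1 and 0.121 in control, and 6.93% of tested genes in siRNA 1 and 7.82% in control were over 2-fold apart between replicates. Epithelial keratins were abundant in all 4 libraries. KRT18, for instance, stood at 544 and 588 in the siRNA 1 libraries, against 487 and 412 in the control libraries. ALDH1A1, an aldehyde dehydrogenase typical of A549, stood at 1908 and 2070.3 in the siRNA 1 libraries, against 1756 and 1831 in the control libraries. The lung lineage factor NKX2-1 and the surfactant gene SFTPA1 were at or near 0. All 13 mRNAs of mitochondrial DNA, which these cells use, were listed at 0 in all 4 libraries, so a 0 is given only as a listed value and no fold is drawn against it.

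TIMM13 itself was not detectably lower with its siRNA. The gene lies at chromosome 19, 2425624 to 2427894, on the minus strand of GRCh38. Its abundance was 2.09 and 1.83 in the siRNA 1 libraries, against 2.09 and 2.56 in the control libraries. The lower control value equalled the higher siRNA 1 value to 3 digits, and the groups differed by less than the test could call (log2 fold change −0.16, SE 0.126, adjusted p = 0.410 by limma). Every direction below is thus a property of libraries labelled siRNA 1, whose TIMM13 RNA was not shown to be reduced. The first bases of TIMM13 overlap the last bases of LMNB2 on the same strand, so reads there could belong to either gene.

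Of 19990 genes in the table, 11182 passed the filter (2 or more of the 4 libraries at 1 or above) and were tested on log2(value + 1), a scale that understates the change of low genes. At a Benjamini-Hochberg adjusted p under 0.05, 2438 genes were called (21.8% of those tested), 1292 of them higher (11.6%) and 1146 lower (10.2%) in siRNA 1. The balance between directions depended on scaling: 1075 were called higher and 1282 lower with libraries rescaled to equal totals, 1143 and 1176 with upper quartiles made equal, and 1119 and 1263 with median ratios. The median change of all tested genes was 0.05 log2 units. Both siRNA 1 libraries lay above both control libraries for 37.1% of tested genes and below them for 31.3%, so that the groups did not overlap for 68.4% of all genes, and lack of overlap below is a description only. A change of at least 2-fold was reached by 365 genes called higher and 380 called lower. The lowest adjusted p was 0.0102, and 2 libraries against 2 could not reach an exact permutation p under 0.333, so the calls lean on the spread that limma shares across genes. The spread was also taken from all 6 libraries without rescaling, where the siRNA 2 replicates lay further apart. With it 215 genes were called (1.92%), 97 higher and 118 lower, and all 215 were among the 2438. Leaving out siRNA 1 replicate 1 left 259 genes called, leaving out siRNA 1 replicate 2 left 426, leaving out control replicate 1 left 548 and leaving out control replicate 2 left 418. In bulk RNA a lower value can mean fewer cells of a state or less RNA per cell, and these cannot be told apart.

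**Figure D1:**
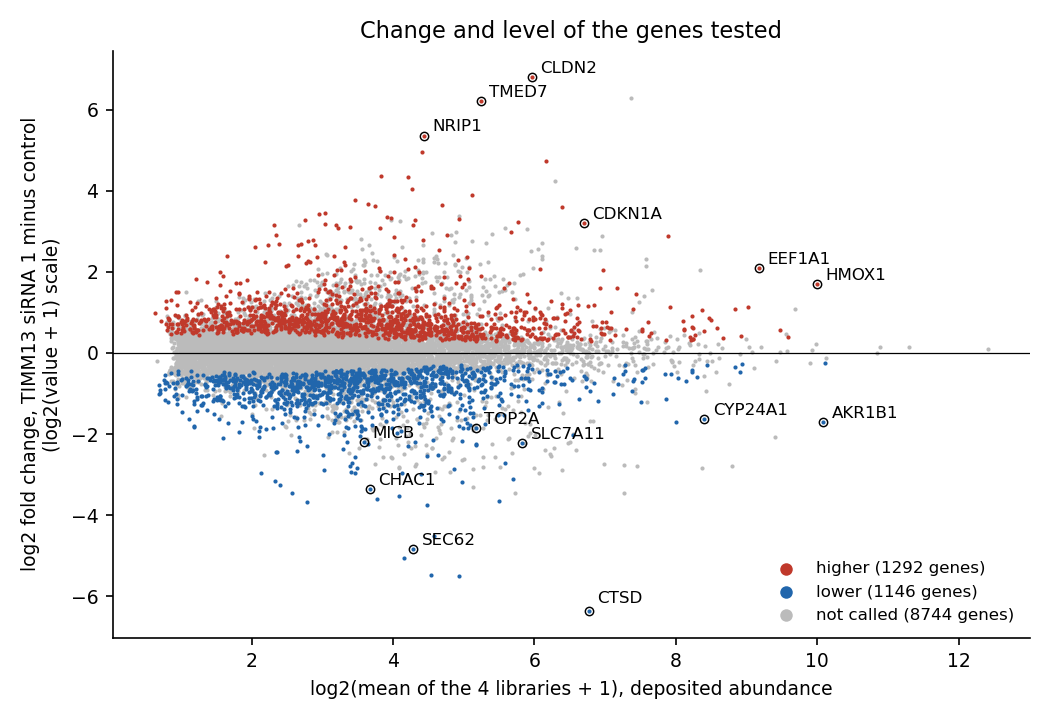
Each point is one of the 11182 tested genes, with log2 of its mean deposited abundance + 1 on the x axis and its log2 fold change, siRNA 1 minus control, on the y axis. Genes called higher (1292) and lower (1146) at adjusted p under 0.05 flank the genes not called, and CLDN2 and CTSD mark the upper and lower ends.

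The gene groups were called in unequal shares. Against 21.8% of all tested genes, 39.7% of the G2/M and mitosis list, 44.2% of the integrated stress response list and 45.2% of the NF-kB list were called, most of them lower. The p53 targets (34.1%), the endoplasmic reticulum list (40.5%), the adhesion and matrix list (38.3%) and the YAP and TEAD targets (48.1%) held calls in both directions. Shares called in either direction that lay near or below that of all genes were those of the replication and G1/S list (23%), interferon response (19.4%), TOM, SAM and TIM23 import (20%), mitochondrial carriers (20.6%), cholesterol and fatty acid synthesis (22.9%), glycolysis and hypoxia (25%), ribosomal proteins (18.4%), the respiratory chain (10.8%), mitochondrial chaperones (15.8%), the lysosome (16.1%), autophagy (10.3%) and the proteasome (5.41%). Taken over both directions, these shares are no result about their lists. They do not show direction, and the calls in each direction are given list by list below. Among all tested genes 11.6% were called higher and 10.2% lower. With the spread of all 6 libraries 29 list genes were called. The list members among them are named in each paragraph, and other members described as called lost their call there. Over all lists 231 genes were called, and 47 were called without siRNA 1 replicate 1, 70 without siRNA 1 replicate 2, 62 without control replicate 1 and 50 without control replicate 2. Shares also went with level: 14.7% of genes with a mean under 2 were called, 22.7% of those from 5 to 20 and 33.7% of those at 100 or more.

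**Figure D2:**
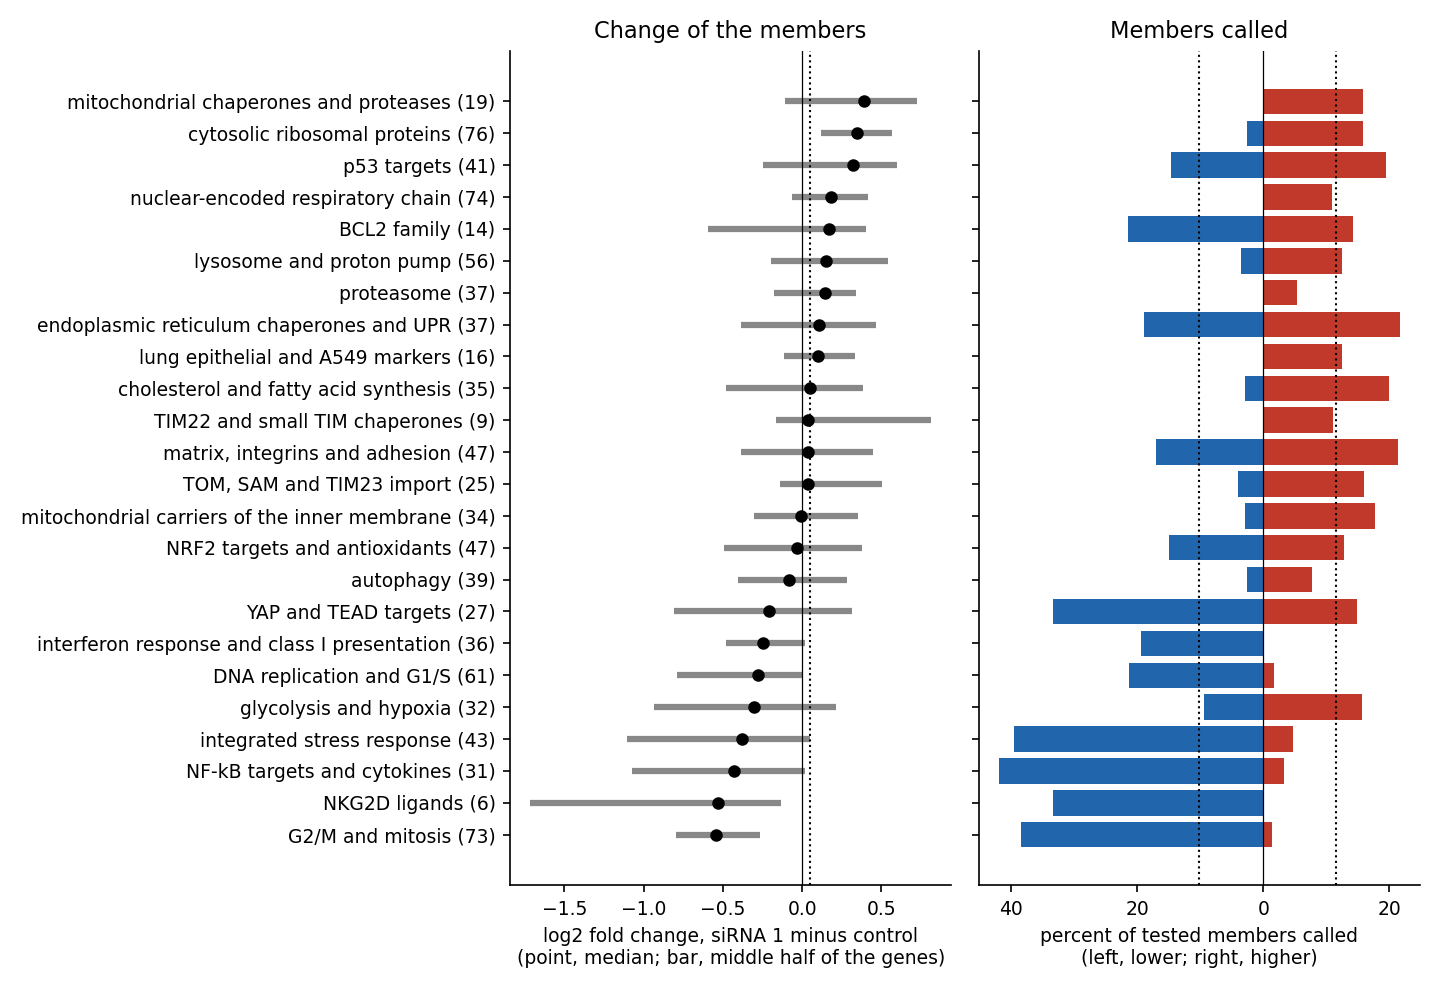
The left panel gives, for each of 24 gene lists with its number of tested members, the median log2 fold change, siRNA 1 minus control (point), and the span from lower to upper quartile of its genes (bar), with a dotted line at the median of all tested genes, 0.05. The right panel gives the percent of tested members called lower (to the left) and higher (to the right), with dotted lines at the shares of all tested genes, 10.2% lower and 11.6% higher; the G2/M list lies lowest by median.

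By count, mitosis genes formed the largest group of called falls among the lists. By share they did not lead: the NF-kB list (13 of 31 tested) and the integrated stress response list (17 of 43) stood slightly higher. Of all tested genes 10.2% were called lower. Of 75 genes of G2/M and mitosis, 73 were tested, 28 were called lower, 1 was called higher and 62 had a negative fold change. The median change was −0.54 log2 units, against 0.05 for all tested genes. TOP2A, the topoisomerase that untangles chromosomes before they part, stood at 14.7 and 14.6 in the siRNA 1 libraries, against 55.9 and 54.5 in the control libraries (log2 fold change −1.84, SE 0.0566, adjusted p = 0.0102). ANLN, the anillin that organises actin at the furrow of dividing cells, stood at 5.79 and 6.65 in the siRNA 1 libraries, against 26.3 and 26.7 in the control libraries (log2 fold change −1.93, SE 0.0947, adjusted p = 0.0116). Both replicates of siRNA 1 lay far below both control replicates for these genes, with gaps between groups many times the gaps within them. CDC25B, the phosphatase that starts the activation of CDK1, stood at 38.2 and 36.8 in siRNA 1 against 93.7 and 94.4 in control. KIF18B, a kinesin that shortens astral microtubules, stood at 5.05 and 4.64 in siRNA 1 against 16.4 and 15.3 in control (log2 fold change −1.53, SE 0.0918, adjusted p = 0.0130). The kinase CDK1 itself stood at 19.1 and 21.8 in siRNA 1 against 41.1 and 48.8 in control (−1.10 log2 units, adjusted p = 0.0253).

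The promoters of 3 of these genes are printed as examples with the element that many mitosis genes share. Of the other genes just given, CDK1 had 1 match in its window and CDC25B had 0. The lines below are the reference windows from 250 bases before to 50 bases after the start of each gene, from RefSeq on GRCh38.p14, written 5′ to 3′ on the strand of the gene. Capitals mark TTTGAA, the core of the cell cycle homology region, or its reverse complement TTCAAA. The TOP2A window is chr17:40417847-40418146 on the minus strand and holds a match on each strand, at bases 57 to 62 and 100 to 105 of the window. The ANLN window is chr7:36389612-36389911 on the plus strand, with matches side by side and without overlap at bases 225 to 230 and 231 to 236. The KIF18B window is chr17:44947724-44948023 on the minus strand, with a match at bases 253 to 258.
TOP2A: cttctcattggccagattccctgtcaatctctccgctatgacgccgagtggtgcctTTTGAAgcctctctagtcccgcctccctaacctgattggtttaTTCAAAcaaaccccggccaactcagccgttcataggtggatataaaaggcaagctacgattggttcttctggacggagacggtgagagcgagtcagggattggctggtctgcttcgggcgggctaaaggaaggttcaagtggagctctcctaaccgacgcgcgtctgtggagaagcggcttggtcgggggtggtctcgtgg
ANLN: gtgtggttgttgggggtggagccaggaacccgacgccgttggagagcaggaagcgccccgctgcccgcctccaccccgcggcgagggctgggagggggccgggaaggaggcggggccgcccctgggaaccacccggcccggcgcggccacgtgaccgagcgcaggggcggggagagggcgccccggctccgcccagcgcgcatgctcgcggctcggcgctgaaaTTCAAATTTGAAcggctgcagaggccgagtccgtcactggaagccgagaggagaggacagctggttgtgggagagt
KIF18B: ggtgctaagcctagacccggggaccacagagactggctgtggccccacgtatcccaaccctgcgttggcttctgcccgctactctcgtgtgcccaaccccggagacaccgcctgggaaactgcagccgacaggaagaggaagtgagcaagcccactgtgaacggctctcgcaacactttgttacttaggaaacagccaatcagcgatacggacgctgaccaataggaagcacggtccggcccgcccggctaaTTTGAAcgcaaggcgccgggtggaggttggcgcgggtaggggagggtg

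Searched on both strands, TTTGAA was present in 15.4% of all 27305 promoter windows of this length and in 9.21% of the 9068 windows that could be matched to a tested gene. Of the 63 tested G2/M genes with a window, 43 held it (68.3%). It was held by 18 of the 25 called lower (72%) and by 25 of the 38 not called (65.8%). A match is a stretch of letters and not a bound site.

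Other mitosis genes that fell act from entry into division to its end. At entry, the polo kinase PLK1 stood at 16.1 and 13.8 in siRNA 1 against 26.5 and 26.2 in control, and cyclin A2, CCNA2, at 8.56 and 10.2 in siRNA 1 against 15.5 and 16.5 in control. Aurora kinase B, AURKB, which corrects the attachment of chromosomes, stood at 4.61 and 4.38 in siRNA 1 against 8.39 and 11.1 in control. Among spindle checkpoint genes BUB3 stood at 12.5 and 12.2 in siRNA 1 against 29.3 and 30.2 in control, MAD2L1 at 5.42 and 5.38 in siRNA 1 against 9.28 and 9.86 in control and TTK at 1.21 and 1.53 in siRNA 1 against 3.56 and 3.06 in control. Both siRNA 1 values lay below both control values for each of these, as they did for 31.3% of all tested genes. ECT2, which sets the site of the cleavage furrow, stood at 24.8 and 27.9 in siRNA 1 against 49.9 and 50.9 in control, and the spindle proteins NUSAP1 and ASPM at 11.3 and 13.1 in siRNA 1 against 28.3 and 22.3 in control and at 5.75 and 5.04 in siRNA 1 against 9.4 and 8.59 in control. The proliferation antigen MKI67 was not called, at 13.6 and 10.1 in siRNA 1 against 22 and 18.7 in control (adjusted p = 0.0779), and neither was cyclin B1, CCNB1, at 27.2 and 28 in siRNA 1 against 33.7 and 36.9 in control (adjusted p = 0.0614). FOXM1, the transcription factor of this gene group, had 1 low and 1 high siRNA 1 library, at 19.9 and 2.95 in siRNA 1 against 27.9 and 26 in control, and was not called (adjusted p = 0.329).

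The single member called higher was BIRC5, which encodes survivin, a subunit of the chromosomal passenger complex and an inhibitor of apoptosis. It stood at 36.9 and 36.2 in the siRNA 1 libraries, against 23.6 and 23.5 in the control libraries (log2 fold change 0.61, SE 0.0552, adjusted p = 0.0183). Its partner in that complex, AURKB, was lower, as given above, and INCENP, the scaffold of the complex, was not called at 7.13 and 6.82 in siRNA 1 against 5.58 and 4.76 in control (adjusted p = 0.109). With the spread of all 6 libraries 4 G2/M members were called, namely TOP2A, ANLN, CDC25B and KIF18B, all lower. Without siRNA 1 replicate 1 the members called lower numbered 4, without siRNA 1 replicate 2 they numbered 7, without control replicate 1 they numbered 5 and without control replicate 2 they numbered 4. The median stayed between −0.59 and −0.49 in these runs.

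Genes of DNA replication and the G1/S step moved less. Of 61 tested, 13 were called lower and 1 higher (23%, against 21.8% of all tested genes). Of all tested genes 10.2% were called lower. The median change was −0.28, and it was −0.10 without siRNA 1 replicate 2. CCND1, the cyclin that carries cells through G1, stood at 93.3 and 89.2 in the siRNA 1 libraries, against 185 and 184 in the control libraries (log2 fold change −1.01, SE 0.0516, adjusted p = 0.0120). UHRF1, which keeps DNA methylation through replication, stood at 3.06 and 2.65 in siRNA 1 against 9.43 and 10.5 in control, and WDR76 at 1.21 and 1.06 in siRNA 1 against 4.32 and 4.38 in control. MCM6 and MCM5, subunits of the replicative helicase, stood at 5.56 and 5.74 in siRNA 1 against 11.5 and 11.5 in control and at 3.26 and 3.11 in siRNA 1 against 7.01 and 9.43 in control. The G1/S cyclin CCNE2 stood at 0.735 and 0.176 in siRNA 1 against 2.58 and 2.37 in control, and the activator E2F2 and the repressor E2F8 at 1.23 and 1.42 in siRNA 1 against 2.66 and 3.15 in control and at 0.614 and 0.696 in siRNA 1 against 2.06 and 1.67 in control. GINS1, of the GINS complex at the fork, was the member called higher, at 26.8 and 25.4 in siRNA 1 against 17.3 and 17.9 in control. PCNA, the sliding clamp, was not called at 193 and 39.5 in siRNA 1 against 117 and 59.7 in control, and E2F1 was not called at 7.25 and 7.72 in siRNA 1 against 7.9 and 7.45 in control. Some members disagreed between replicates: the thymidine kinase TK1 stood at 23.4 and 0.278 in the siRNA 1 libraries, against 41.3 and 42.9 in the control libraries, 1 siRNA 1 library being near 0 and the other not. UHRF1 and WDR76 were the 2 members also called with the spread of all 6 libraries, and without siRNA 1 replicate 1, siRNA 1 replicate 2, control replicate 1 and control replicate 2 the counts called lower by limma were 2, 3, 1 and 0, the last with 18 members lower at an unadjusted p under 0.05.

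**Figure D3:**
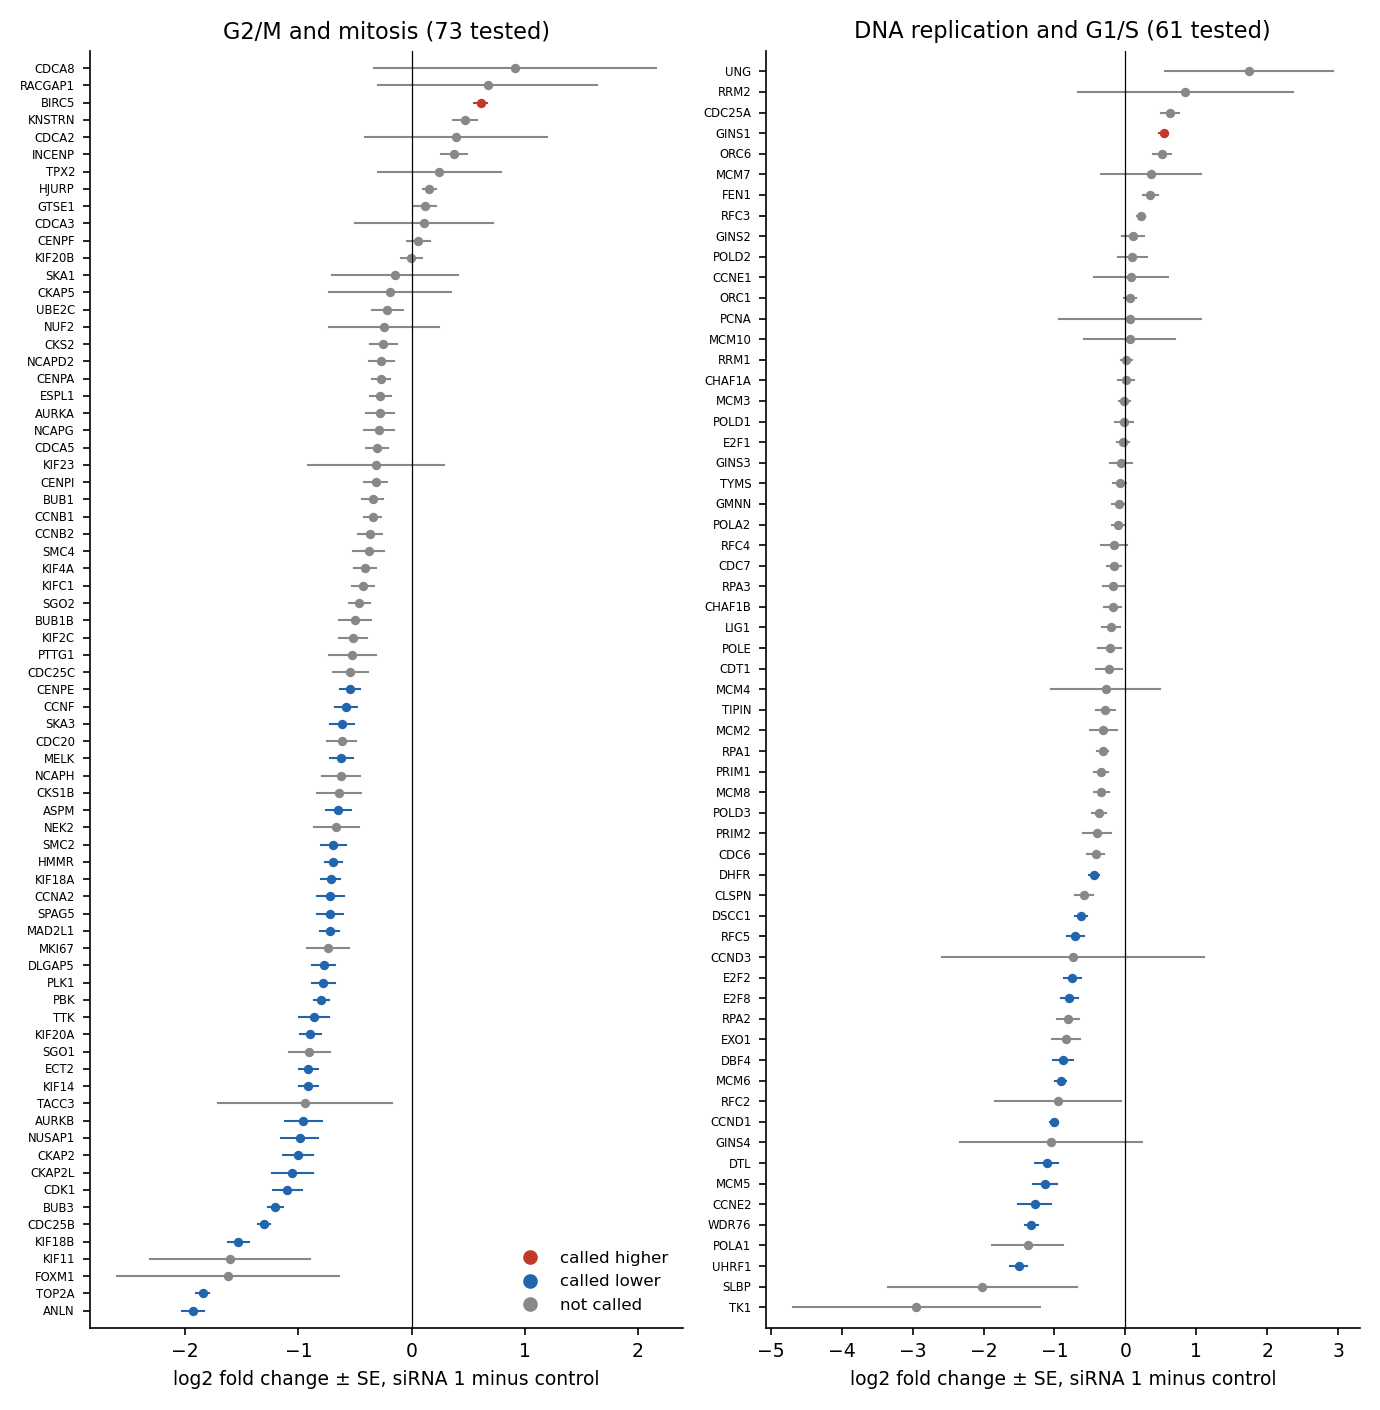
Log2 fold change, siRNA 1 minus control, with its SE for every tested member of the G2/M list (73 genes, left) and of the replication and G1/S list (61 genes, right), ordered by change. The G2/M genes lie mostly left of 0, with TOP2A and ANLN lowest, and the long bars are genes whose replicates disagree.

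The cell cycle inhibitor CDKN1A was the largest called rise among p53 targets. It stood at 206.1 and 167 in the siRNA 1 libraries, against 17.6 and 21.2 in the control libraries (log2 fold change 3.20, SE 0.162, adjusted p = 0.0118). Of 41 tested p53 targets 8 were called higher and 6 lower (34.1%, against 21.8% of all tested genes). Their median change was 0.32, and it was 0.21 without siRNA 1 replicate 1. BAX, the protein that opens the outer mitochondrial membrane in apoptosis, stood at 73.6 and 73.1 in the siRNA 1 libraries, against 28.4 and 28.3 in the control libraries (log2 fold change 1.34, SE 0.0507, adjusted p = 0.0103). BTG2, an antiproliferative factor, stood at 26.7 and 23.1 in siRNA 1 against 5.8 and 5.1 in control, and TRIAP1, which acts against apoptosis in the intermembrane space, at 88.1 and 89.7 in siRNA 1 against 42.1 and 45.2 in control. The DNA repair gene XPC and the mitochondrial reductase FDXR were called higher too, at 16.8 and 17.4 in siRNA 1 against 7.69 and 7.12 in control and at 12.5 and 11 in siRNA 1 against 6.11 and 6.14 in control. Against these, ZMAT3, an RNA-binding p53 target, fell, at 1.49 and 1.16 in siRNA 1 against 9.42 and 9.67 in control (log2 fold change −2.18, SE 0.118, adjusted p = 0.0120). TP53INP1, which promotes p53-dependent death, stood at 7.36 and 6.52 in siRNA 1 against 15.4 and 14.3 in control, and PPM1D, the phosphatase that switches p53 off, at 5.06 and 4.68 in siRNA 1 against 11.2 and 9.73 in control. NINJ1, a membrane protein that ruptures dying cells, was called higher at 50.4 and 50.5 in siRNA 1 against 35.8 and 29.8 in control, and STEAP3, a ferrireductase, lower at 12.8 and 14.6 in siRNA 1 against 21.3 and 21.7 in control. CDKN1A was the only p53 target of the list called with the spread of all 6 libraries. Without siRNA 1 replicate 1, siRNA 1 replicate 2, control replicate 1 and control replicate 2 the members called higher numbered 2, 3, 4 and 4.

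The BCL2 family, which decides between survival and death at the mitochondrion, had 5 of 14 tested members called, 2 higher and 3 lower. The share was 35.7%, against 21.8% of all tested genes. MCL1, a protector, stood at 100.3 and 94.4 in the siRNA 1 libraries, against 11.8 and 7.57 in the control libraries (log2 fold change 3.23, SE 0.237, adjusted p = 0.0156). All siRNA 1 values were above all control values by a wide margin, and as MCL1 has several annotated transcripts, a shift between them and a change of its total RNA cannot be told apart. Among the BH3-only proteins, which promote death, BMF stood at 0.932 and 0.861 in siRNA 1 against 5.67 and 5.83 in control and BAD at 13.3 and 13.3 in siRNA 1 against 24.5 and 21.5 in control. PMAIP1, which encodes NOXA, the partner that neutralises MCL1, stood at 28.9 and 26.6 in siRNA 1 against 44.2 and 38.3 in control (log2 fold change −0.55, SE 0.105, adjusted p = 0.0483). BMF was the member called with the spread of all 6 libraries. The median of the family was 0.17 and lay between −0.32 and 0.27 when 1 library at a time was left out.

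**Figure D4:**
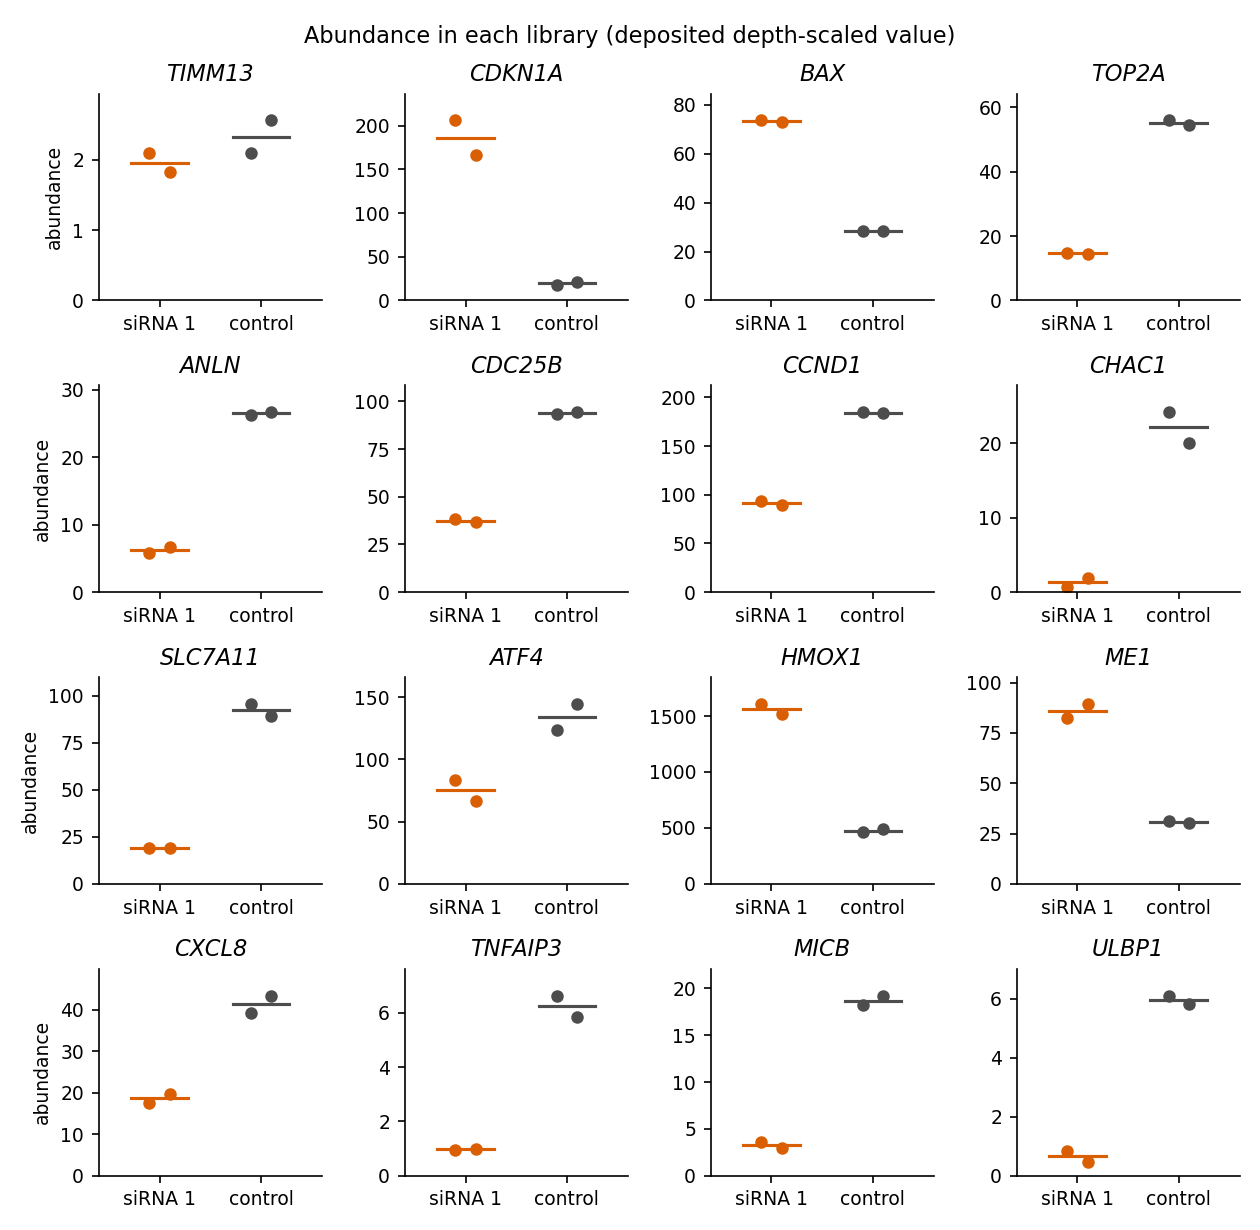
Deposited abundance in each library, siRNA 1 (left, 2 points) and control (right, 2 points) with a bar at the mean, for TIMM13 and 15 genes of the groups described. TIMM13 has overlapping groups, while the other 15 genes, like 68.4% of all tested genes, have both siRNA 1 libraries on one side of both control libraries.

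The integrated stress response lets ATF4 raise amino acid import, synthesis and tRNA charging when translation initiation is restrained. Of 43 tested members of its list 17 were called lower, 2 were called higher and 24 were not called. Calls made up 44.2%, against 21.8% of all tested genes, and the median was −0.38. ATF4 mRNA stood at 83.4 and 66.8 in the siRNA 1 libraries, against 124 and 145 in the control libraries (log2 fold change −0.84, SE 0.156, adjusted p = 0.0474). CHAC1, which degrades glutathione, stood at 0.732 and 1.93 in the siRNA 1 libraries, against 24.2 and 20.1 in the control libraries (log2 fold change −3.36, SE 0.321, adjusted p = 0.0191). For CHAC1 the 2 siRNA 1 replicates themselves differed more than 2-fold.

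The CHAC1 promoter holds a match to the letters of the amino acid response element, the kind of element to which ATF4 binds. Binding at this match was not measured. Its reference window (RefSeq, GRCh38.p14, chr15:40953221-40953520, plus strand, 5′ to 3′) is printed with the match to TGATGNAA in capitals. The match is on the reverse strand, at bases 42 to 49 of the window.
CHAC1: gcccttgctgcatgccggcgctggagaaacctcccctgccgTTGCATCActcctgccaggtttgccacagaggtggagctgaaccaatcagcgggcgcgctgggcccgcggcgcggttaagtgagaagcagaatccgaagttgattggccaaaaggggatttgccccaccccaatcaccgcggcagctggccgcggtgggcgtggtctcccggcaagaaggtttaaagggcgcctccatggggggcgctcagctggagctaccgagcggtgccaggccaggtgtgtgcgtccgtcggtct

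On either strand TGATGNAA was found in 1.57% of the windows of tested genes and in 9 of 35 tested members with a window (25.7%). The share was 26.7% (4 of 15) among members called lower and 26.3% (5 of 19) among members not called.

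Members called lower included several amino acid transporters. SLC7A11, the cystine and glutamate exchanger, stood at 19 and 19 in siRNA 1 against 95.7 and 89.4 in control (log2 fold change −2.22, SE 0.0634, adjusted p = 0.0102). SLC38A2, which imports small neutral amino acids, stood at 141 and 147 in siRNA 1 against 315 and 319 in control, and the cationic transporter SLC7A1 at 6.86 and 5.3 in siRNA 1 against 16 and 14.7 in control. SLC1A4 and SLC6A9, carriers of neutral amino acids and of glycine, stood at 3.76 and 3.65 in siRNA 1 against 11.5 and 9.23 in control and at 1.72 and 1.55 in siRNA 1 against 4.3 and 4.83 in control. All of these were called lower. The tRNA synthetases CARS1, GARS1 and MARS1 were called lower, with log2 fold changes of −0.84, −0.87 and −0.61, while SARS1, which charges serine tRNA, was called higher at 23.2 and 22.3 in siRNA 1 against 17.7 and 17.8 in control (0.34 log2 units). MTHFD2, of mitochondrial folate metabolism, stood at 24.5 and 31.2 in siRNA 1 against 61.1 and 63.4 in control. CEBPB, a transcription factor that pairs with ATF4, stood at 147 and 151 in siRNA 1 against 227 and 229 in control, and STC2, a secreted stress protein, at 11.6 and 11.6 in siRNA 1 against 30.2 and 29.1 in control.

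Other members were not called. DDIT3, which encodes CHOP, stood at 8.34 and 9.33 in siRNA 1 against 4.52 and 15.5 in control (adjusted p = 0.970). TRIB3, which restrains ATF4, stood at 52.5 and 46.4 in siRNA 1 against 53.8 and 51.2 in control (adjusted p = 0.519). PSAT1, of serine synthesis, had replicates far apart in siRNA 1, at 9.61 and 75.9 in siRNA 1 against 131 and 134 in control. SLC7A11 and CHAC1 were the 2 members called with the spread of all 6 libraries. Without siRNA 1 replicate 1, siRNA 1 replicate 2, control replicate 1 and control replicate 2 the counts called lower were 2, 6, 3 and 3, with medians from −0.44 to −0.28.

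NF-kB is the transcription factor family that drives inflammatory genes and their own inhibitors. Of 50 listed genes 31 were tested, and 13 were called lower and 1 higher (45.2%, against 21.8% of all tested genes). Their median was −0.43. Among secreted factors CXCL8, which attracts neutrophils, stood at 17.5 and 19.7 in the siRNA 1 libraries, against 39.3 and 43.4 in the control libraries (log2 fold change −1.11, SE 0.101, adjusted p = 0.0183). CCL20 stood at 0.638 and 0.775 in siRNA 1 against 4.81 and 4.34 in control, CCL2 at 1.65 and 1.31 in siRNA 1 against 7.47 and 7.02 in control and CXCL5 at 43.8 and 46.6 in siRNA 1 against 84.9 and 87.7 in control. LIF, a cytokine of the interleukin-6 family, stood at 34.8 and 30.5 in siRNA 1 against 68.6 and 65 in control. Both siRNA 1 values lay below both control values for these chemokines and cytokines, a placing found for 31.3% of all tested genes.

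Members called lower also included inhibitors and subunits of NF-kB itself. TNFAIP3, the ubiquitin-editing enzyme A20, stood at 0.943 and 0.997 in siRNA 1 against 6.62 and 5.84 in control (log2 fold change −1.87, SE 0.106, adjusted p = 0.0120), and NFKBIA, the inhibitor IκBα, at 36.1 and 34.5 in siRNA 1 against 46.3 and 44.3 in control. BIRC3, an inhibitor of apoptosis and a classical target, stood at 1.58 and 2.67 in siRNA 1 against 8.94 and 7.67 in control. The subunits RELA and RELB stood at 15.3 and 17.7 in siRNA 1 against 25.6 and 25.8 in control and at 1.68 and 1.38 in siRNA 1 against 4.48 and 4.36 in control. NFKBIB, the inhibitor IκBβ, was the member called higher, at 15.1 and 14.7 in siRNA 1 against 8.8 and 7.39 in control. PLAU, the urokinase that activates plasminogen, stood at 13 and 12.9 in siRNA 1 against 48.3 and 49.6 in control (log2 fold change −1.84, SE 0.0583, adjusted p = 0.0102). PTGS2, the inducible cyclooxygenase, differed between replicates of both groups, at 75.4 and 5.8 in siRNA 1 against 3.01 and 41.8 in control, and was not called. PLAU, TNFAIP3, CCL20 and CCL2 were called with the spread of all 6 libraries. Without siRNA 1 replicate 1, siRNA 1 replicate 2, control replicate 1 and control replicate 2 the counts called lower were 1, 3, 3 and 3.

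Interferon-response genes showed 7 calls among 36 tested members (19.4%), all lower, with a median of −0.25. Of all tested genes 21.8% were called in either direction and 10.2% were called lower. IRF7, the regulator of type I interferon genes, stood at 0.167 and 0.214 in siRNA 1 against 1.34 and 1.1 in control, near the lower end of the scale. IRF1 stood at 2.16 and 2 in siRNA 1 against 4.08 and 3.66 in control, and the antiviral genes IFIT5 and IFIT3 at 9.68 and 9.12 in siRNA 1 against 16.6 and 14.8 in control and at 1.74 and 1.52 in siRNA 1 against 3.07 and 3.83 in control. TAPBP, which loads peptides on class I molecules, stood at 29.97 and 34.9 in siRNA 1 against 50.1 and 48.6 in control. Without any 1 of the 4 libraries, siRNA 1 replicate 1, siRNA 1 replicate 2, control replicate 1 or control replicate 2, limma called 0 members lower, although 10 were lower at an unadjusted p under 0.05 without control replicate 2. IRF7 was the member called with the spread of all 6 libraries. NKG2D ligands, surface proteins that mark stressed cells for natural killer cells, had 2 of 6 tested members called, both lower. Their share was 33.3%, against 21.8% of all tested genes. MICB stood at 3.64 and 2.97 in the siRNA 1 libraries, against 18.2 and 19.2 in the control libraries (log2 fold change −2.20, SE 0.119, adjusted p = 0.0120). ULBP1, a gene with a single annotated transcript, stood at 0.851 and 0.449 in the siRNA 1 libraries, against 6.09 and 5.82 in the control libraries (log2 fold change −2.09, SE 0.163, adjusted p = 0.0159). Both ligands were called with the spread of all 6 libraries, and MICA, the closest relative of MICB, was not called at 2.31 and 5.9 in siRNA 1 against 4.65 and 8.36 in control.

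NRF2 targets and antioxidant genes were split, with 6 of 47 tested members called higher and 7 called lower. The share called was 27.7%, against 21.8% of all tested genes. The median was −0.04 and lay between −0.15 and 0.07 with 1 library left out. A549 cells carry a KEAP1 mutation that keeps NRF2 active, and many of these genes were abundant in both groups. HMOX1, which breaks down haem, stood at 1608 and 1514 in the siRNA 1 libraries, against 465 and 488 in the control libraries (log2 fold change 1.71, SE 0.0572, adjusted p = 0.0102). ME1, a source of cytosolic NADPH with 1 annotated transcript, stood at 82.2 and 89.4 in siRNA 1 against 31.1 and 30.5 in control, and the glutathione peroxidase GPX2 at 854 and 848 in siRNA 1 against 567 and 578 in control. GCLM, the modifier subunit of the enzyme that starts glutathione synthesis, stood at 141 and 157 in siRNA 1 against 97.2 and 94.4 in control, and ALDH3A1 at 353 and 307 in siRNA 1 against 156 and 145 in control. On the other side AKR1B1, aldose reductase, stood at 489.8 and 525 in the siRNA 1 libraries, against 1644 and 1692 in the control libraries (log2 fold change −1.72, SE 0.0561, adjusted p = 0.0102). PGD, an NADPH-producing enzyme of the pentose phosphate pathway, stood at 405 and 399 in siRNA 1 against 561 and 561 in control, and CYP4F3 at 4.46 and 4.46 in siRNA 1 against 10.7 and 8.74 in control. SLC7A11, also an NRF2 target, is given above.

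The antioxidant members moved in both directions. HMOX1 and ME1 rose by over 1 log2 unit while AKR1B1 fell by 1.72. NQO1, the standard NRF2 marker, was not called at 117 and 53.2 in siRNA 1 against 42.8 and 261 in control. SRXN1, a gene with 1 annotated transcript, stood at 234 and 219 in the siRNA 1 libraries, against 5.88 and 299.6 in the control libraries, so 1 control library differed from the other 3. The antioxidant element TGACNNNGC was present, on either strand, in 22.2% of the 36 tested members with a window and in 15.2% of the windows of tested genes. It was held by 3 of 3 members called higher, 2 of 6 called lower and 3 of 27 not called (11.1%). These counts are small and the split was not tested. HMOX1, ME1 and SLC7A11 were the members called with the spread of all 6 libraries.

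Genes of the machinery in which TIMM13 works were called about as often as other genes or less. Of the 9 small TIM chaperones and TIM22 components, all tested, 1 was called (11.1%, against 21.8% of all tested genes): TIMM10B, a subunit that docks the chaperones on the TIM22 complex, at 16.5 and 17.2 in the siRNA 1 libraries, against 9.41 and 8.9 in the control libraries (log2 fold change 0.81, SE 0.0765, adjusted p = 0.0188). TIMM8A, the partner of TIMM13, was not called at 10.2 and 5.49 in siRNA 1 against 2.5 and 2.77 in control (adjusted p = 0.0828), its 2 siRNA 1 values lying above both control values but far from each other. TIMM22, the channel itself, stood at 7.95 and 7.6 in siRNA 1 against 9.98 and 9.77 in control (adjusted p = 0.0796). TIMM9 and TIMM10, which form the other chaperone ring, stood at 20.01 and 21.4 in siRNA 1 against 18.7 and 18.8 in control and at 31.6 and 23.4 in siRNA 1 against 28 and 26.6 in control, and neither was called.

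In the TOM, SAM and TIM23 machinery 4 of 25 tested members were called higher and 1 lower (20% called, against 21.8% of all tested genes), with a median of 0.04 that lay between 0.02 and 0.07 with 1 library left out. TIMM23, the channel of the presequence pathway and a known cargo of TIMM13, stood at 50.7 and 53.5 in the siRNA 1 libraries, against 34.9 and 38.7 in the control libraries (log2 fold change 0.49, SE 0.0820, adjusted p = 0.0400). The import receptor TOMM22 stood at 14.2 and 16.7 in siRNA 1 against 6.84 and 6.85 in control, and SAMM50, which inserts barrel proteins there, at 3.82 and 3.92 in siRNA 1 against 1.84 and 2.3 in control. The lower member was GRPEL2, a nucleotide exchange factor of the import motor, at 6.97 and 5.71 in siRNA 1 against 12.5 and 12.4 in control. With the spread of all 6 libraries limma called 0 of these, with 2 higher and 1 lower at an unadjusted p under 0.05. The mitochondrial carrier family, which holds many clients of TIM22, had 6 of 34 tested members called higher and 1 lower (20.6% called). Not every member of the list is such a client, SLC25A46 among those called higher being an exception. The median was −0.01 and lay between −0.03 and 0.08 with 1 library left out. The ADP/ATP carrier SLC25A5 stood at 326 and 350.2 in siRNA 1 against 266 and 265 in control, and SLC25A20, which carries acylcarnitines, at 5.72 and 5.66 in siRNA 1 against 3.47 and 3.31 in control. SLC25A33, a pyrimidine nucleotide carrier, was the lower one at 1.85 and 1.63 in siRNA 1 against 3.47 and 3.29 in control. Here too limma called 0 with the spread of all 6 libraries, with 2 higher and 1 lower at an unadjusted p under 0.05.

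Nuclear genes of the respiratory chain had 8 of 74 tested members called higher and 0 called lower by limma, where 18 and 4 stood at an unadjusted p under 0.05. The share called was 10.8%, against 21.8% of all tested genes. A positive fold change was found for 51 members, and the median was 0.18. The median fell to 0.08 without siRNA 1 replicate 2 and was 0.27 without siRNA 1 replicate 1. COX7A2, a small subunit of cytochrome oxidase, stood at 22 and 22.5 in the siRNA 1 libraries, against 1 and 0.671 in the control libraries (log2 fold change 3.67, SE 0.132, adjusted p = 0.0103). COX7B, another small subunit, stood at 49.9 and 56.8 in siRNA 1 against 11.2 and 12.3 in control and UQCRB, of the bc1 complex, at 56.1 and 52.7 in siRNA 1 against 10.6 and 8.8 in control. These 3 had changes above 2 log2 units with the siRNA 1 libraries far above control. Smaller rises were those of SDHC, which anchors succinate dehydrogenase, at 75.1 and 76.1 in siRNA 1 against 49 and 48.5 in control, and of cytochrome c, CYCS, at 68.8 and 80.4 in siRNA 1 against 35.1 and 34.7 in control. UQCRB and COX7B were called with the spread of all 6 libraries. Mitochondrial chaperones and proteases had 3 of 19 tested members called, all higher (15.8%), with a median of 0.39 that was 0.24 without control replicate 2. The matrix protease LONP1 stood at 14.6 and 16.7 in siRNA 1 against 5.8 and 5.27 in control, prohibitin, PHB1, at 85.5 and 88.9 in siRNA 1 against 50.5 and 52.9 in control and the inner membrane protease AFG3L2 at 12.5 and 12.6 in siRNA 1 against 6.64 and 5.92 in control. HSPD1, the matrix chaperonin, was not called at 295 and 315 in siRNA 1 against 103 and 44.4 in control (adjusted p = 0.0747), and its control replicates differed over 2-fold.

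Of the cytosolic ribosomal proteins 18.4% were called, against 21.8% of all tested genes, 12 of 76 higher and 2 lower. A positive fold change was found for 66 members, and the median was 0.34. RPL13A stood at 455 and 458 in the siRNA 1 libraries, against 261 and 262 in the control libraries (log2 fold change 0.80, SE 0.0411, adjusted p = 0.0120). RPL3 stood at 358 and 375 in siRNA 1 against 242 and 234 in control and RPL11 at 129 and 114 in siRNA 1 against 57.9 and 56.6 in control. RPL35A was called lower at 43.9 and 47.2 in siRNA 1 against 91.8 and 89 in control, and so was RPL15 at 391 and 409.9 in siRNA 1 against 500.0 and 517 in control. The median was 0.16 without siRNA 1 replicate 2 and 0.39 without siRNA 1 replicate 1, and with the spread of all 6 libraries limma called 0 members, with 1 higher at an unadjusted p under 0.05. Ribosomal protein genes have many near-identical pseudogene copies, with which reads may have been shared. Outside that list the elongation factor EEF1A1 stood at 957 and 909 in the siRNA 1 libraries, against 214 and 223 in the control libraries (log2 fold change 2.09, SE 0.0541, adjusted p = 0.0102), one of the most abundant called genes, and was not called with the spread of all 6 libraries.

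In the endoplasmic reticulum list 8 of 37 tested members were called higher and 7 lower (40.5%, against 21.8% of all tested genes). Their median was 0.10, and it was 0.19 without siRNA 1 replicate 1 and 0.18 without siRNA 1 replicate 2. Members called higher included the chaperone CALR and the disulfide isomerases PDIA4 and PDIA3, with CALR at 234 and 207 in siRNA 1 against 144 and 148 in control, PDIA4 at 109 and 111 in siRNA 1 against 79.6 and 75.1 in control and PDIA3 at 71.3 and 71.8 in siRNA 1 against 53.7 and 49.6 in control. SEC11A, a subunit of signal peptidase, stood at 147 and 162 in siRNA 1 against 89.8 and 91.9 in control, and SSR2, of the translocon-associated complex, at 118 and 115 in siRNA 1 against 77.5 and 79.2 in control. Members called lower included ERN1, SEL1L, EDEM1, HERPUD1 and DNAJB9. ERN1, the sensor IRE1, stood at 1.93 and 2.19 in the siRNA 1 libraries, against 7.93 and 8.24 in the control libraries (log2 fold change −1.57, SE 0.0997, adjusted p = 0.0137). SEL1L, the adaptor of the degradation ligase, stood at 10.3 and 11.2 in siRNA 1 against 24.7 and 24.5 in control, EDEM1, which selects misfolded glycoproteins, at 7.12 and 5.66 in siRNA 1 against 21.2 and 19.1 in control and HERPUD1 at 14.4 and 14 in siRNA 1 against 24 and 22.2 in control. DNAJB9, an induced co-chaperone, stood at 17 and 18 in siRNA 1 against 33.3 and 33.4 in control. HSPA5, the chaperone BiP, was not called at 47.9 and 53.9 in siRNA 1 against 50.4 and 31.6 in control (adjusted p = 0.438). SEC62, the translocon component, is given among the largest falls and was the member called with the spread of all 6 libraries.

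In the lysosome and its proton pump 7 of 56 tested members were called higher and 2 lower (16.1%, against 21.8% of all tested genes), with a median of 0.15. The protease CTSB stood at 89.5 and 88.5 in siRNA 1 against 11.1 and 9.6 in control (log2 fold change 2.99, SE 0.0919, adjusted p = 0.0102) and the galactosidase GLB1 at 32.3 and 29.97 in siRNA 1 against 6.39 and 6.34 in control. The pump subunits ATP6V1G1 and ATP6V0D1 stood at 119 and 131 in siRNA 1 against 65.5 and 70.7 in control and at 37.9 and 34.5 in siRNA 1 against 17.9 and 19.2 in control. CTSD, the aspartic protease, went the other way: it stood at 4.76 and 0.176 in the siRNA 1 libraries, against 221 and 209 in the control libraries (log2 fold change −6.37, SE 0.938, adjusted p = 0.0389). The siRNA 1 replicates of CTSD were themselves far apart, but both lay far below control. Without siRNA 1 replicate 1, siRNA 1 replicate 2, control replicate 1 and control replicate 2 the members called higher were 2, 2, 4 and 5. CTSB and CTSD were called with the spread of all 6 libraries. Autophagy genes had 3 of 39 tested members called higher and 1 lower (10.3%), with a median of −0.09 that was 0.0013 without siRNA 1 replicate 2 and −0.18 without control replicate 2. WIPI2, which marks forming autophagosomes, stood at 17.4 and 15.7 in siRNA 1 against 5.9 and 6.13 in control and ATG101, of the initiating kinase complex, at 25.2 and 22.1 in siRNA 1 against 37 and 39.9 in control. In the proteasome 2 of 37 tested members were called, both higher (5.41%), with a median of 0.14 that was 0.05 without control replicate 1 and 0.07 without siRNA 1 replicate 2. PSMD11 was called with the spread of all 6 libraries. PSMD11, of the regulatory particle, stood at 35.6 and 32.4 in siRNA 1 against 2.64 and 3.2 in control (log2 fold change 3.16, SE 0.119, adjusted p = 0.0103) and PSMC3 at 7.63 and 7.07 in siRNA 1 against 3.65 and 3.83 in control.

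Cholesterol and fatty acid synthesis had 7 of 35 tested members called higher and 1 lower, with a median of 0.05. The share called was 22.9%, against 21.8% of all tested genes, and the median lay between 0.03 and 0.10 with 1 library left out. Among the mevalonate enzymes MVK stood at 7.85 and 8.28 in siRNA 1 against 5.15 and 5.12 in control, PMVK at 12.2 and 14.5 in siRNA 1 against 6.01 and 4.12 in control and MVD at 12.3 and 13.2 in siRNA 1 against 7.08 and 5.5 in control. ACLY, which supplies cytosolic acetyl-CoA, fell, at 59.4 and 61.8 in siRNA 1 against 134 and 136 in control (log2 fold change −1.14, SE 0.0525, adjusted p = 0.0116). With the spread of all 6 libraries limma called 0, with 3 higher and 1 lower at an unadjusted p under 0.05. Glycolysis and hypoxia genes had 5 of 32 tested members called higher and 3 lower (25%), with a median of −0.31 that moved to −0.01 without siRNA 1 replicate 1 and to −0.17 without control replicate 2. PFKL, a phosphofructokinase, stood at 8.63 and 8.36 in siRNA 1 against 3.57 and 3.63 in control. The angiogenic factor VEGFA stood at 14.3 and 16.5 in siRNA 1 against 28.1 and 28.9 in control and the lactate exporter SLC16A3 at 10.5 and 10.9 in siRNA 1 against 28.2 and 40.1 in control. LDHA, lactate dehydrogenase, had discordant siRNA 1 replicates, at 563 and 102 in siRNA 1 against 1002 and 1032 in control, and was not called.

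Adhesion and matrix genes had 10 of 47 tested members called higher and 8 lower (38.3%, against 21.8% of all tested genes). Their median was 0.04. CLDN2, a claudin that forms cation-permeable tight junctions, stood at 126 and 120.0 in the siRNA 1 libraries, against 0.113 and 0.110 in the control libraries (log2 fold change 6.80, SE 0.0757, adjusted p = 0.0102). It was the largest rise of the comparison, with control values barely above 0 in both replicates. THBS1, thrombospondin, stood at 17.1 and 19 in siRNA 1 against 5.26 and 5.18 in control, fibronectin, FN1, at 73.4 and 60.5 in siRNA 1 against 38.9 and 37.6 in control and the laminin-binding integrin ITGA3 at 45.3 and 35.3 in siRNA 1 against 12 and 8.6 in control. CLDN1, a sealing claudin, fell, at 17.8 and 17.1 in siRNA 1 against 27.8 and 27.3 in control, and so did LOXL2, which crosslinks collagen, at 35.9 and 32.7 in siRNA 1 against 73.9 and 72.1 in control. TGFBI, a secreted matrix protein induced by TGF-beta, was also called lower, at 148 and 164 in siRNA 1 against 214 and 205 in control. The median lay between −0.04 and 0.07 with 1 library left out, and CLDN2 and THBS1 were called with the spread of all 6 libraries.

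YAP and TEAD targets, which report on the Hippo growth pathway, had 4 of 27 tested members called higher and 9 lower. Calls made up 48.1%, against 21.8% of all tested genes, and the median was −0.21. The kinase NUAK2, with 1 annotated transcript, stood at 19 and 17.5 in the siRNA 1 libraries, against 47.1 and 48.5 in the control libraries (log2 fold change −1.34, SE 0.0719, adjusted p = 0.0120). The coactivator WWTR1, known as TAZ, stood at 61.7 and 63.4 in siRNA 1 against 108 and 105 in control and its DNA-binding partner TEAD1 at 23.3 and 22.7 in siRNA 1 against 44.2 and 40.8 in control. The receptor kinase AXL stood at 13.8 and 15.2 in siRNA 1 against 27.1 and 29.96 in control. PTPN14, an inhibitor of YAP, was called higher at 3.55 and 3.37 in siRNA 1 against 0.440 and 0.340 in control, as was NT5E, an enzyme that makes adenosine, at 31.9 and 29.7 in siRNA 1 against 15.2 and 15.9 in control. CCN1 and CCN2, the most used readouts of YAP, were not called, at 56.4 and 55 in siRNA 1 against 78.2 and 68.9 in control (adjusted p = 0.0625) and at 81.4 and 84.2 in siRNA 1 against 86.6 and 94.3 in control (adjusted p = 0.287). PTPN14 and GADD45B, a stress-induced gene, were called with the spread of all 6 libraries. YAP1 itself had control replicates far apart, at 47.1 and 49.3 in siRNA 1 against 16.7 and 1.16 in control.

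Markers of other cell types were low. Of 21 markers of leukocytes, fibroblasts and endothelium, 18 were under 1 in all 4 libraries and 6 were at 0 in all 4, PTPRC, CD3E and VWF among them. Their summed abundance was 19.7 and 20.8 in siRNA 1, against 7.64 and 8.73 in control, and most of the difference was ACTA2, a smooth muscle actin, at 13.9 and 14.3 in siRNA 1 against 1.54 and 2.27 in control (log2 fold change 2.39, SE 0.165, adjusted p = 0.0144). COL1A1 stood at 2.32 and 1.83 in siRNA 1 against 0.757 and 0.795 in control and CD14 at 1.8 and 2.29 in siRNA 1 against 4.09 and 4.47 in control, both called, COL1A1 higher and CD14 lower. The part of such cells or of these genes in the other results was not tested. Of 16 tested lung epithelial and A549 markers 2 were called (12.5%, against 21.8% of all tested genes), both higher, with a median of 0.10. They were ALDH3A1, given above, and EPCAM at 4.77 and 5.7 in siRNA 1 against 1.63 and 2.17 in control.

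The largest single changes fell on genes with several transcripts, as most genes have: 632 of the 11182 tested genes have 1 annotated transcript. The share of genes over 2-fold apart between groups hardly varied with transcript number, as given below. TMED7, a cargo receptor of the early secretory pathway, stood at 71.7 and 75.9 in siRNA 1 and was listed at 0 and 0 in control. No fold or rank is drawn for it, and its readthrough gene is given below. NRIP1, a corepressor of nuclear receptors, stood at 41.1 and 41.9 in the siRNA 1 libraries, against 0.0520 and 0.00673 in the control libraries (log2 fold change 5.37, SE 0.0872, adjusted p = 0.0102). THAP12 stood at 39.4 and 41.1 in siRNA 1 against 0.375 and 0.285 in control and SURF4, a cargo receptor of the endoplasmic reticulum, at 142 and 133 in siRNA 1 against 5.41 and 3.18 in control. NET1, an exchange factor for RHOA, stood at 59.6 and 68.4 in siRNA 1 against 2.94 and 3.85 in control, and APH1B, a subunit of gamma-secretase, at 19.3 and 19.7 in siRNA 1 against 0.431 and 0.578 in control. HSDL2, COMMD7, FAM98A and TCEAL9 had log2 fold changes of 4.38, 4.35, 4.06 and 3.65. In each of these the siRNA 1 replicates agreed closely and control was low in both libraries. TMED7 (adjusted p = 0.175), COMMD7 (0.156), SURF4 (0.0967) and FAM98A (0.0618) lost their call in limma with the spread of all 6 libraries. Their siRNA 2 replicates were far apart, with TMED7 at 0 and 52.8, COMMD7 at 0.898 and 23.7, SURF4 at 7 and 58.2 and FAM98A at 8.53 and 29.6.

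Among the falls, SEC62 stood at 0.226 and 0.395 in the siRNA 1 libraries, against 36.4 and 36.9 in the control libraries (log2 fold change −4.85, SE 0.109, adjusted p = 0.0102). SEC62 helps to move proteins into the endoplasmic reticulum after their synthesis. DPY19L1, a mannosyltransferase relative, stood at 1.04 and 0.944 in siRNA 1 against 43.6 and 46 in control, the RNA helicase DDX17 at 6.53 and 4.86 in siRNA 1 against 81.6 and 83.1 in control and the GTPase RHOC at 6.11 and 4.41 in siRNA 1 against 51.9 and 59.9 in control. ILF2, a partner of double-stranded RNA-binding proteins, stood at 1.83 and 2.34 in siRNA 1 against 38.5 and 42.3 in control, CCNC, the cyclin of the Mediator kinase module, at 1.98 and 0.460 in siRNA 1 against 24 and 24.4 in control and SYPL1 at 9.12 and 10.4 in siRNA 1 against 88.4 and 95.9 in control. CDK5RAP3 was listed at 0 in both siRNA 1 libraries and stood at 11.4 and 12.1 in control. TBC1D20, which switches off RAB1, stood at 2.41 and 1.16 in siRNA 1 against 30.8 and 29.4 in control. ILF2 (adjusted p = 0.312), CCNC (0.192), SYPL1 (0.143) and CDK5RAP3 (0.116) lost their call in limma with the spread of all 6 libraries. Their siRNA 2 replicates were far apart, with ILF2 at 1.84 and 94.8, CCNC at 2.43 and 32.9, SYPL1 at 3.53 and 24.6 and CDK5RAP3 at 4.01 and 28.8.

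Some of the largest changes involved genes that share sequence with a readthrough transcript spanning a neighbour. MOB4 was listed at 0 and 0.0633 in siRNA 1, against 32.4 and 34.5 in control, while the readthrough HSPE1-MOB4 stood at 79.3 and 80.5 in siRNA 1 and 46.6 and 43.0 in control. TMED7-TICAM2 was listed at 0 in both siRNA 1 libraries, against 9.54 and 10.3 in control, while TMED7 had a 0 in each control library and TICAM2 was called higher at 2.73 and 2.49 in siRNA 1 against 0 and 0.0356 in control. PEDS1-UBE2V1 was called lower at 55.8 and 54.0 in siRNA 1 against 74.0 and 79.1 in control, and PEDS1 was called higher at 11.2 and 9.78 in siRNA 1 against 1.4 and 1.32 in control. Of 30 tested genes whose hyphenated name contains another tested gene, 7 were called, a share near the 21.8% of all tested genes. KBTBD11-OT1 is counted among the 7, although its name does not join neighbouring genes. In all 4 pairs in which the readthrough and a parent were both called they moved in opposite directions. TMED7-TICAM2 enters these pairs with both of its parents, so the pairs are not separate cases. No source used here says how reads of such overlapping genes were divided, so neither member of a pair can be read as a change of level.

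Genes with 1 annotated transcript leave no room for a shift between isoforms, and 632 of them were tested. They were called in 31.8% of cases, 108 higher and 93 lower, and the share declined bin by bin to 16.2% among genes with 16 or more transcripts. The share of genes whose group means differed over 2-fold hardly varied, at 12.2% with 1 transcript and 11.4% with 16 or more. The agreement of replicates did vary: 4.75% of 1-transcript genes were over 2-fold apart between siRNA 1 replicates and 3.8% between control replicates, against 9.7% and 10.2% with 16 or more.

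**Figure D5:**
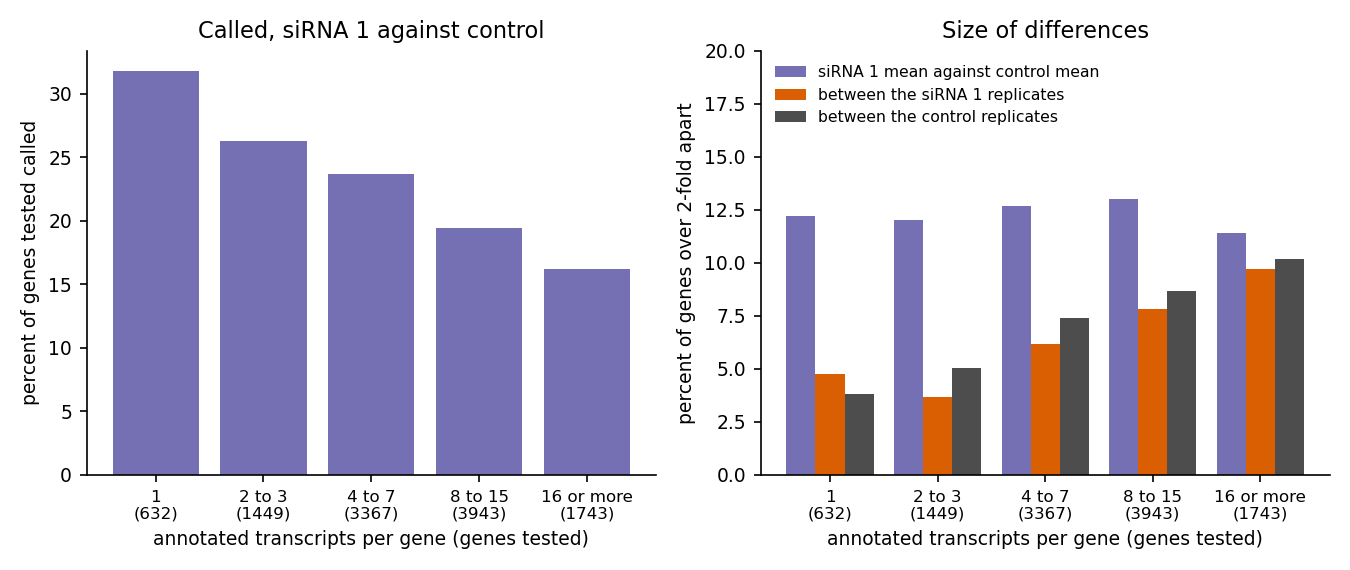
Left, percent of tested genes called in siRNA 1 against control by the number of annotated transcripts per gene (number of genes tested in parentheses). Right, percent of the same genes over 2-fold apart between the group means, between the siRNA 1 replicates and between the control replicates; the share called is 31.8% with 1 transcript and 16.2% with 16 or more, and the replicate differences are larger with more transcripts.

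Among 1-transcript genes the rises included several with a known role. HSPA1B, an inducible heat shock protein, stood at 115 and 102 in the siRNA 1 libraries, against 24 and 26 in the control libraries (log2 fold change 2.07, SE 0.0931, adjusted p = 0.0116), although its near-identical neighbour HSPA1A could share its reads. SDHAF1, an assembly factor of succinate dehydrogenase, stood at 25.9 and 24.2 in siRNA 1 against 6.86 and 6.47 in control, and ATXN7L3B at 18.3 and 18.5 in siRNA 1 against 5.42 and 5.21 in control. OVCA2 stood at 24 and 30.8 in siRNA 1 against 3.61 and 2.21 in control, ZNF629 at 12.1 and 10.5 in siRNA 1 against 3.08 and 3.18 in control and MAGEF1 at 29.6 and 27.7 in siRNA 1 against 9.87 and 8.75 in control. HNRNPA1L2, a copy of HNRNPA1, stood at 38.5 and 45.5 in siRNA 1 against 7.07 and 5.7 in control, and its reads may come from its parent. OVCA2 was the one of these 7 genes called with the spread of all 6 libraries.

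Among the falls of 1-transcript genes IRF2BPL, a transcriptional regulator, stood at 12.4 and 10.5 in the siRNA 1 libraries, against 38.5 and 38.9 in the control libraries (log2 fold change −1.68, SE 0.102, adjusted p = 0.0130). KLHL9, an adaptor of a ubiquitin ligase that acts in mitosis, stood at 4.47 and 4.43 in siRNA 1 against 13.9 and 13.8 in control, and TNFRSF21, death receptor 6, at 7.93 and 6.33 in siRNA 1 against 21 and 20.3 in control. C1QL1 stood at 5.58 and 5.86 in siRNA 1 against 16.4 and 18.2 in control and EID3 at 17.1 and 13.3 in siRNA 1 against 37.5 and 39.3 in control. The adjusted p of these 5 genes in limma lay between 0.0578 and 0.114 with the spread of all 6 libraries.

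Among the most abundant called genes most changes were small. IGFBP4, which binds insulin-like growth factors and has 1 annotated transcript, stood at 716 and 708 in the siRNA 1 libraries, against 337 and 309 in the control libraries (log2 fold change 1.14, SE 0.0632, adjusted p = 0.0120). TMSB10, which sequesters actin monomers, stood at 897 and 850.0 in siRNA 1 against 663 and 666 in control, and CD24 at 541 and 566 in siRNA 1 against 408 and 414 in control. On the lower side PFN1, profilin, stood at 994 and 1028 in siRNA 1 against 1188 and 1216 in control, the tubulin gene TUBA1B at 448 and 431 in siRNA 1 against 521 and 547 in control and the RNA-binding PCBP1 at 319 and 306 in siRNA 1 against 374 and 394 in control. These last changes were −0.25, −0.28 and −0.29 log2 units, beside replicates that lay closer still.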

How the data were processed

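The libraries were dUTP-based strand-specific preparations of poly(A)-selected RNA, per the labels' protocols. The authors deposited 1 table of 19990 gene symbols and 6 columns holding a signal per gene, a fractional abundance that was treated here as scaled to library depth. Whether this is FPKM, TPM or another unit, and how a gene's transcripts were merged into 1 row, are points on which the sources used here are silent. Read counts could not be recovered from the fractions, so depth is unknown and precision rests on the replicates alone. Trim Galore, STAR, featureCounts and the build hg38 are named, without roles or order, per the submitters' processing notes.

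For the comparison of siRNA 1 with control, genes at 1 or above in 2 or more of the 4 libraries were taken as log2(value + 1), with a pseudocount of 1 and no rescaling. With 2 libraries a group, 2 residual degrees of freedom remained. The test was the moderated one of limma 3.58.1, run under R 4.3.3 with the trend and robust settings of eBayes. Adjusted p-values are Benjamini-Hochberg values over all 11182 tested genes, and a gene was called at an adjusted p under 0.05. Fold changes are siRNA 1 minus control on that log2 scale, with the standard error of the fit. Simulated data with known changes were also run through the fit. Their noise was drawn from the spread that the fit itself estimated, so those runs do not vouch for the calls made here. GENCODE release 29 on GRCh38 held 19813 of the symbols (99.1%) and served for coordinates and transcript numbers. Promoter windows came from RefSeq on GRCh38.p14 and were found for 9068 tested genes (81.1%).

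The members and the 25 gene lists were chosen with earlier results of these data known. Genes named by rule were TIMM13, the 12 largest changes, the 8 largest among 1-transcript genes and the 6 most abundant genes per direction (all called, with a mean of at least 5 in the higher group, and without clone-style, non-coding and readthrough names) and, with no minimum, up to 4 called members per list and direction. Some genes that the rule names are not reported here. Other genes named, readthrough pairs included, were chosen after their values were seen. Alternatives were the spread of all 6 libraries, pseudocounts of 0.1 and 5, 3 rescalings, 2 other filters, limma without trend and robust options, a replicate block, 1-transcript genes alone and leaving out each library. A 2-fold minimum was added after the data were seen. The siRNA contrast was fitted over all 6 libraries. Neither it nor the spread of all 6 libraries was rescaled.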

Additional observations from a re-analysis of the deposited data

Results flagged for a closer look

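The change in siRNA 1 libraries differed from that in siRNA 2 libraries for 20 of the 162 named genes, by limma's test of the difference over all 6 libraries (adjusted p under 0.05 over 11486 genes, of which 376 or 3.27% were called). Both changes share the same control libraries, so the difference is that between the siRNAs. Most of the named genes were chosen for their siRNA 1 change against control, which favours such differences. Their share is therefore not comparable with that of all genes. Below, each difference is siRNA 1 minus siRNA 2 in log2 units.

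Among genes that were lower in siRNA 1, CTSD differed most. It stood at 4.76 and 0.176 in siRNA 1 against 413 and 423 in siRNA 2 (−7.33, adjusted p = 0.0365). DPY19L1 stood at 1.04 and 0.944 in siRNA 1 against 66.4 and 57.4 in siRNA 2 (−4.98, adjusted p = 0.0157), and the siRNA 2 values lay above the control values as well. The helicase DDX17 differed by −3.60, the GTPase RHOC by −3.37 and TBC1D20 by −3.15. SEC62 was lower than control with both siRNAs and differed by −2.55. The lactate exporter SLC16A3 differed by −2.53 and the urokinase PLAU by −2.25. C1QL1 differed by −1.46, CD14 by −1.34 and IRF7 by −0.89.

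Among genes that were higher in siRNA 1, HMOX1 stood at 1608 and 1514 in siRNA 1 against 162 and 207 in siRNA 2 (3.09, adjusted p = 0.0191), on opposite sides of control. NT5E also moved to opposite sides, with 31.9 and 29.7 in siRNA 1 against 4.91 and 4.81 in siRNA 2 (2.44). ACTA2 differed by 2.88, BTG2 by 2.38, THBS1 by 1.81 and SDF2L1 by 1.16. BIRC5, the one mitosis gene called higher, stood at 36.9 and 36.2 in siRNA 1 against 14.6 and 11 in siRNA 2 (1.45). CLDN2 and HSDL2 were higher than control with both siRNAs and differed by 2.50 and 1.85.

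The siRNA 2 libraries lay further apart than the others, with column totals of 205986 and 299936 for replicates 1 and 2. Their upper quartiles over tested genes were 15.6 and 20.7. No library was rescaled for this contrast or for the spread of all 6 libraries, so offsets of a whole library enter both. The part of such offsets was not tested. Without siRNA 2 replicate 2 the test called 1647 genes and without siRNA 2 replicate 1 it called 4581. The 20 genes were chosen as genes called in this contrast, and these runs share its other libraries. Whether they kept their call was therefore largely fixed in advance and is no support.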

How the results depend on the processing

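Among 162 named genes no log2 fold change turned round in 2273 recomputed values. That outcome was largely fixed in advance and is no support, because 161 of these genes were named as genes called in these data. Several alternatives (another spread, filter or limma option, the replicate block, 1-transcript genes alone) also leave the log2 fold change of a gene as it was. Calls moved most with the replicate block, given below, and also with the source of the spread and with a library left out. With the spread of all 6 libraries 215 genes were called (97 higher, 118 lower), with 29 of 231 list genes, and 37 of 161 named genes kept their call. With 1 library left out the count of called genes lay between 259 and 548, of genes called higher between 75 and 390, of genes called lower between 121 and 284 and of list genes between 47 and 70. Of the named genes 47 kept their call without siRNA 1 replicate 1, 65 without siRNA 1 replicate 2, 67 without control replicate 1 and 61 without control replicate 2. The fits with a library left out have 1 residual degree of freedom and assume that the lone library varies like the other group. Limited to 1-transcript genes, which are fewer by construction, 304 were called (166 higher, 138 lower), with 15 list genes. The main fit called 201 of the same 632 genes, so calls among them rose when they were fitted alone. A 2-fold minimum, added after the data were seen, left 745 (365 higher, 380 lower).

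The numbers of the replicates are not known to pair the samples: deviations of same-numbered libraries correlated at −0.000848 over genes. With a replicate block limma called 0 genes (0 higher, 0 lower, 0 list genes), with a lowest adjusted p of 0.0884 and 3773 genes at an unadjusted p under 0.05. In siRNA 1 against siRNA 2 the block likewise left 0 calls of 376, with 2436 genes at an unadjusted p under 0.05, while leaving out an siRNA 2 library gave between 1647 and 4581. The cause of these shifts was not tested.

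Pseudocounts of 0.1 and 5, rescaling, filters and limma without trend and robust options gave between 1808 and 2518 called genes, all within 1.5 times of 2438. TIMM13 was called in none of the alternatives in which it was tested. Of 352 recomputed list medians 74 moved by more than the spread between replicates. With depth unknown and 2 libraries a group, precision rests on the replicates.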
